A study of Caenorhabditis elegans with 92 samples.

Results

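HCP-6 binding was compared between sdc-2 mutant and wild-type embryos of C. elegans through the 2 peak lists made with 1 HCP-6 antibody. The mutant list held 45 peaks and the wild-type list 1677, together 1722 of the 20438 peaks in the 17 lists of the series. Every peak of both lists was taken. The mutant strain, TY1072, carries her-1(e1520) on chromosome V and the sdc-2 null allele y74 on the X; its animals are genetically male tetraploids (AAAA XX). N2 is the wild-type strain. Both strains were collected as mixed-stage embryos and crosslinked with formaldehyde, and the ChIP used a rabbit polyclonal antibody to the C-terminal end of HCP-6. Mutant peaks were called on 2 libraries and wild-type peaks on 4, pooled within each strain, so each list gives 1 value per peak with no replicate spread, and no difference between the strains could be tested against one. Loss of sdc-2 cannot be told apart here from the her-1 allele, the tetraploidy or the lower dose of the X relative to the autosomes, since the mutant animals share all of these and no wild-type animals have any.

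Condensins are ring-shaped complexes that fold and compact chromosomes. HCP-6 is the CAPD3-type subunit of condensin II, which also holds KLE-2, CAPG-2 and the SMC pair MIX-1 and SMC-4. MIX-1 and SMC-4 are shared with condensin I, whose other subunits are DPY-26, DPY-28 and CAPG-1. Condensin I-DC, which is part of the dosage compensation complex, has DPY-27 in place of SMC-4. In XX hermaphrodites SDC-2 brings condensin I-DC to the X, where it lowers transcription. SCC-2 (PQN-85) loads cohesin, and AMA-1 is the large subunit of RNA polymerase II.

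HCP-6 peaks were few in the mutant and all of them lay at wild-type sites. With at least 1 shared base counted as overlap, all 45 mutant peaks overlapped a wild-type HCP-6 peak (100%, exact 95% interval over peaks 92.1 to 100%), so the mutant list held 0 new sites. In the other direction, 42 of the 1677 wild-type peaks were kept, which is 2.50% of the list (1.81 to 3.37%). A wild-type peak counts as kept where a mutant peak overlaps it, and as lost where none was called. Lost thus describes the lists and is not a measure of absent binding. From enrichment values, a figure legend of the paper describes HCP-6 binding in this mutant as largely similar on autosomes and diminished at rex-2, an X recruitment site. The paper's text calls binding at rex-2 both abolished and diminished. Its comparison over the peaks of all autosomes is for SCC-2 and not for HCP-6. On the autosomes 41 of 1373 were kept (2.99%, 2.15 to 4.03%), and on the X 1 of 304 (0.329%, 0.00833 to 1.82%). These exact (Clopper-Pearson) intervals cover counting error only. The X held 2.22% of the mutant list, against 18.1% of the wild-type list. Per Mb of chromosome the mutant list had between 0.24 peaks on chromosome V and 0.748 on chromosome IV among the autosomes, and 0.0564 on the X, against 9.59 on chromosome V to 22.5 on chromosome I among the autosomes and 17.2 on the X in wild type. Each autosome kept some sites, from 1.83% on chromosome III to 4.69% on chromosome IV, and the intervals of these shares overlapped one another.

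The size of the libraries goes with the low count in the mutant. By the study's sample list each mutant HCP-6 library had fewer mapped reads than each wild-type HCP-6 library, and there were 2 against 4 to pool. The depth itself is unknown from the peak files, and its part in the count was not tested. The running numbers that the peak caller left in the peak names reached 64 in the mutant list and 2327 in the wild-type list, of which 45 and 1677 were retained (70.3% and 72.1%). For scale, the IgG control in wild type gave 23 peaks.

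The single mutant peak on the X was chrX:11604923-11606803 (WS220, 1881 bp, score 350). The score is the negative log10 of the peak caller's p multiplied by 10, which runs from 100 to a ceiling of 3100. This peak ranked 24 among the 45 mutant scores. Its wild-type partner, chrX:11602833-11608887, was the widest HCP-6 peak on the X at 6055 bp and had a score of 3100, and the centres of both lay 3 bp apart. The site carried peaks of all 10 other condensin, SCC-2 and AMA-1 lists of wild-type embryos and none of IgG. It also carried a peak in the mutant KLE-2, SCC-2 and DPY-26 lists.

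Other wild-type X peaks at the ceiling score were lost. The 3 widest of the lost X peaks at the ceiling were chrX:13142712-13147436 (4725 bp), chrX:11093171-11096174 (3004 bp) and chrX:2996026-2998638 (2613 bp), and each overlapped 9 or 10 of the 11 other wild-type embryo lists. Of all 304 wild-type HCP-6 peaks on the X, 93.1% overlapped MIX-1, 97.7% CAPG-1, 93.8% DPY-28, 91.4% DPY-26 and 90.5% DPY-27, the subunits of condensin I-DC. SCC-2 was found at 62.5%, SMC-4 at 61.8%, KLE-2 at 59.2% (KLE-2 of L3 larvae at 45.4%), CAPG-2 at 34.9%, AMA-1 at 22.4% and IgG at 0.658% of them. These shares hold for the lost X peaks to within 1 percentage point, since all but 1 of the 304 were lost. The lost X peaks had a median width of 1240 bp and reached over the whole range of scores, from 106 to 3100. HCP-6 peaks of the X, weak and strong, thus mostly overlapped peaks of these subunits, of which only DPY-27 is particular to condensin I-DC. Such peaks were dense on the X, with 2376 for DPY-26 and 2175 for DPY-27. The overlap that this density alone would give was not worked out.

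The autosomal peaks that were kept were the strongest of the wild-type list. Of the 41, 37 had the ceiling score of 3100 and the other 4 lay between 1405 and 2914, so all fell within the top 17.2% of the list by score. The lowest of them was chrII:13816826-13828815, which at 11990 bp was also the widest HCP-6 peak of all. The 1332 lost autosomal peaks had a median score of 455, and 53 of them had a score of 3100. At the ceiling, 37 of 90 autosomal peaks were kept (41.1%, 30.8 to 52%), against 4 of the 184 others in the top 20% (2.17%, 0.595 to 5.47%) and 0 of 1099 below it (upper limit 0.335%). On the X the same steps gave 1 of 20 (5%, 0.127 to 24.9%), 0 of 42 and 0 of 242.

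Kept autosomal peaks were also wide. Their median wild-type width was 2228 bp (range 1249 to 11990 bp, interval of the median 1972 to 3339 bp), against 1200 bp (563 to 6765 bp, interval 1185 to 1218 bp) for the lost ones, and all 41 were wider than the median autosomal peak. Among peaks at the ceiling the medians were closer, 2160 bp (1866 to 2880 bp) for the 37 kept and 1593 bp (1365 to 1920 bp) for the 53 lost. Widths of both kinds overlapped over most of their range. The widest lost autosomal peaks at the ceiling were chrIII:12611059-12617597 (6539 bp), chrI:7710656-7716458 (5803 bp) and chrII:11633408-11638106 (4699 bp), each wider than the median kept peak.

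**Figure D1:**
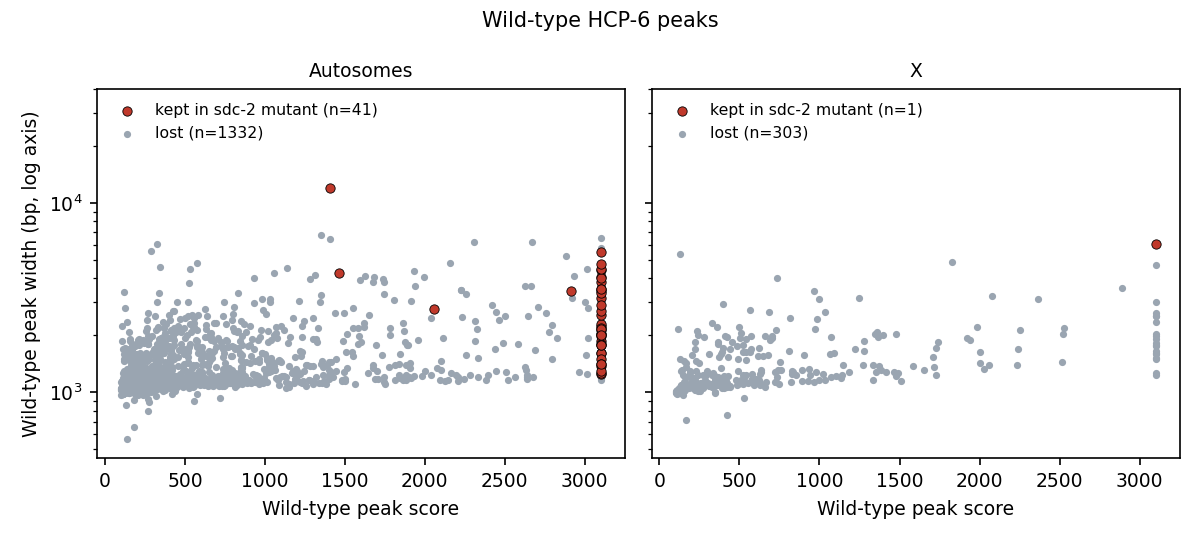
Width (bp, log axis) against peak score for each wild-type HCP-6 peak, autosomes on the left and X on the right, with peaks kept in the sdc-2 mutant in red and lost peaks in grey. Of the 41 kept autosomal peaks 37 stand at the ceiling score of 3100, as does the 1 kept X peak, with 53 lost autosomal and 19 lost X peaks at the same score.

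Mutant peaks were narrower than the wild-type peaks they overlapped. All 45 were narrower than their wild-type partner, with a median width of 1279 bp, against 2561 bp for the partners. They spanned 24.3 to 95.8% (median 57.7%) of the partner. The whole wild-type list had a median width of 1217 bp, so mutant peaks were not narrow for HCP-6 peaks in general. Whether the smaller mutant libraries bear on the called width was not tested. Of the 45, 41 lay wholly inside the partner and the other 4 did so over at least 92.2% of their length. The median distance between centres was 238 bp. At 3 sites the wild-type peak held 2 mutant peaks each, which is why 45 mutant peaks matched 42 wild-type ones.

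Over all autosomal sites, kept and lost peaks overlapped SCC-2 and AMA-1 at like shares, and kept peaks had higher shares with the condensin subunits. SCC-2 was found at 18 of the 41 kept peaks (43.9%, 28.5 to 60.3%), against 43.2% (40.5 to 45.9%) of the lost ones and 43.2% of all 1373. AMA-1 was found at 14 kept peaks (34.1%, 20.1 to 50.6%), against 34.7% (32.1 to 37.3%) of the lost ones and 34.7% of all. SMC-4 was found at 23 kept peaks (56.1%, 39.7 to 71.5%), against 32.7% (30.2 to 35.3%) of the lost ones and 33.4% of all. MIX-1 was found at 15 kept peaks (36.6%, 22.1 to 53.1%), against 22.9% (20.7 to 25.3%) of the lost ones and 23.3% of all. The SMC-4 intervals stood apart and those of MIX-1, SCC-2 and AMA-1 overlapped. The other condensin II subunits gave 65.9% of kept peaks with CAPG-2 (49.4 to 79.9%), against 34.5% of lost (31.9 to 37.1%) and 35.4% of all, and 73.2% with KLE-2 (57.1 to 85.8%), against 59.1% of lost (56.4 to 61.7%) and 59.5% of all. The KLE-2 list of L3 larvae covered 39 of the 41 kept peaks (95.1%, 83.5 to 99.4%), against 62.6% of lost (60 to 65.2%) and 63.6% of all. Subunits of condensin I and condensin I-DC were rare on the autosomes. CAPG-1 was found at 24.4% of kept (12.4 to 40.3%), against 3.83% of lost (2.86 to 5%) and 4.44% of all. DPY-26, DPY-28 and DPY-27, the last of condensin I-DC only, were each found at 6 kept peaks (14.6%, 5.57 to 29.2%). In that order they were found at 2.18%, 2.33% and 0.751% of lost and 2.55%, 2.69% and 1.17% of all. IgG peaks, which mark background, lay at 4 kept peaks (9.76%, 2.72 to 23.1%), against 13 of the lost (0.976%, 0.521 to 1.66%) and 1.24% of all. Kept peaks were also wider (median 2228 against 1200 bp), and a wider peak more readily shares a base with another list. The part of width in these shares was not tested.

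Since nearly all kept peaks had the ceiling score, the same shares were taken among autosomal peaks at the ceiling only. Peaks at the ceiling can still differ in strength, and the kept ones there were wider (median 2160 against 1593 bp). The higher share then lay with the lost peaks for SMC-4, MIX-1, KLE-2, CAPG-2, CAPG-1, DPY-28 and DPY-26, and also for SCC-2, and it stayed with the lost peaks for AMA-1 and with the kept peaks for IgG, DPY-27 and KLE-2 of L3 larvae. SCC-2 was found at 16 of the 37 kept peaks (43.2%, 27.1 to 60.5%), against 39 of the 53 lost ones (73.6%, 59.7 to 84.7%). AMA-1 gave 29.7% of kept (15.9 to 47%) and 49.1% of lost (35.1 to 63.2%). SMC-4 gave 56.8% of kept (39.5 to 72.9%) and 73.6% of lost (59.7 to 84.7%). MIX-1 gave 32.4% of kept (18 to 49.8%) and 50.9% of lost (36.8 to 64.9%). Each of these 4 proteins thus had a lower share at kept than at lost sites at the ceiling, although all 4 pairs of intervals overlapped, for SCC-2 only by less than 1 percentage point. The other condensin II subunits gave 67.6% of kept (50.2 to 82%) and 75.5% of lost peaks (61.7 to 86.2%) with CAPG-2, and 70.3% of kept (53 to 84.1%) and 79.2% of lost (65.9 to 89.2%) with KLE-2. Of the condensin I subunits, CAPG-1 gave 16.2% of kept (6.19 to 32%) and 20.8% of lost (10.8 to 34.1%), DPY-28 gave 10.8% of kept (3.03 to 25.4%) and 24.5% of lost (13.8 to 38.3%), and DPY-26 gave 10.8% of kept (3.03 to 25.4%) and 11.3% of lost (4.27 to 23%). DPY-27 gave 13.5% of kept (4.54 to 28.8%) and 7.55% of lost (2.09 to 18.2%). The higher shares of kept peaks with condensin subunits over all scores were thus not seen among peaks at the ceiling, except for DPY-27 and KLE-2 of L3 larvae. All of these intervals overlapped. The IgG intervals overlapped too, with 10.8% of kept (3.03 to 25.4%) and 7.55% of lost peaks (2.09 to 18.2%). KLE-2 of L3 larvae was found at 36 of the 37 kept (97.3%, 85.8 to 99.9%) and 86.8% of the lost peaks (74.7 to 94.5%).

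**Figure D2:**
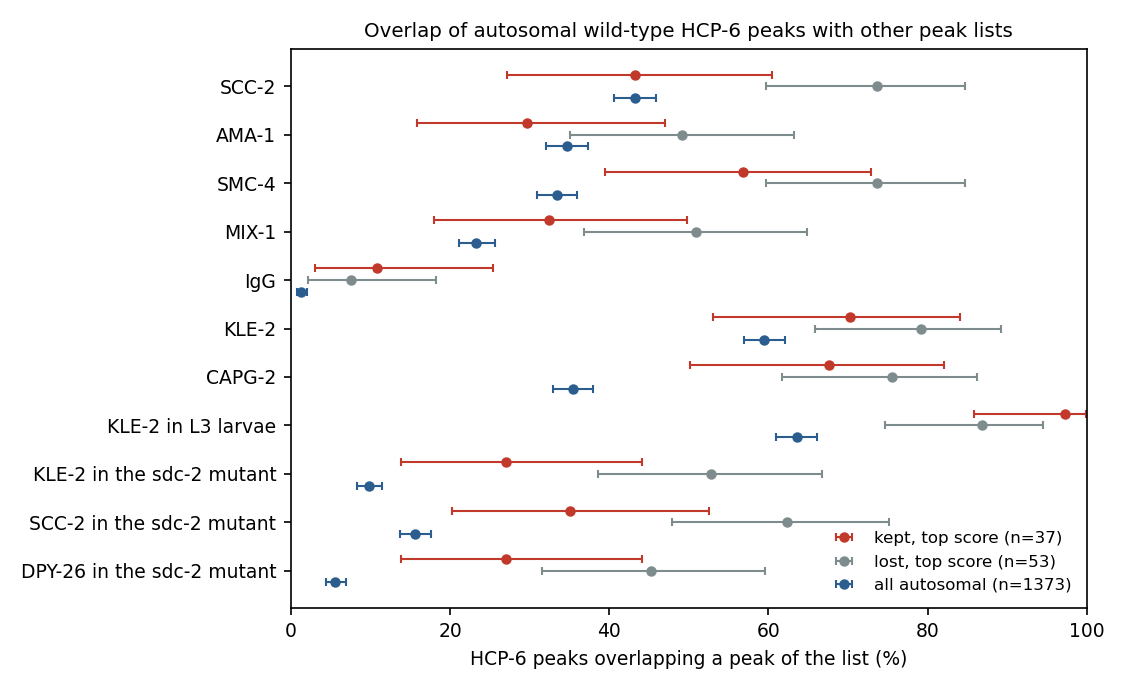
Share of autosomal wild-type HCP-6 peaks (%) that overlap a peak of each other list, for peaks at the ceiling score kept in the sdc-2 mutant (red), lost peaks at the ceiling score (grey) and all autosomal HCP-6 peaks (blue), with exact 95% intervals over peaks. SCC-2 lies at 43.2% of kept and 73.6% of lost peaks at the ceiling, and mutant KLE-2 at 27% and 52.8%.

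Counted from the side of the partner, over all autosomal peaks 18 of 593 with SCC-2 were kept (3.04%, 1.81 to 4.75%), against 23 of 780 without SCC-2 (2.95%, 1.88 to 4.39%), which are like shares. At the ceiling 16 of 55 autosomal peaks with SCC-2 were kept (29.1%, 17.6 to 42.9%), against 21 of 35 without SCC-2 (60%, 42.1 to 76.1%), with intervals that overlapped by less than 1 percentage point. All 20 X peaks at the ceiling carried SCC-2, MIX-1, SMC-4, KLE-2 and CAPG-2, and 1 of them was kept (5%, 0.127 to 24.9%), so the X had no site at the ceiling without SCC-2 to set beside the autosomal ones. Peaks with KLE-2 or CAPG-2 but no SCC-2 made up 13 of the 37 kept (35.1%, 20.2 to 52.5%) and 3 of the 53 lost autosomal peaks at the ceiling (5.66%, 1.18 to 15.7%), and 26.4% of all autosomal peaks. Of 11 combinations of lists looked at after the values were known, this was the one whose intervals stood apart at the ceiling. Some of the 13 kept peaks were close neighbours, such as chrII:3521001-3522376 and chrII:3523026-3524634, or chrIII:3455361-3457380 and chrIII:3458832-3460853. The intervals count each of these as separate, and whether they would stand apart with neighbours joined was not tested. Over all autosomal peaks its intervals overlapped, with 36.6% of kept (22.1 to 53.1%) and 26.1% of lost peaks (23.7 to 28.5%), and 4 others stood apart with the higher share among the kept peaks. Among these were SCC-2, AMA-1, SMC-4 and MIX-1 together, at 26.8% of kept (14.2 to 42.9%) and 8.18% of lost peaks (6.77 to 9.79%), and 8 or more of the 11 lists, at 22% of kept (10.6 to 37.6%) and 1.65% of lost peaks (1.04 to 2.49%).

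The 45 mutant peaks fell over a wide range of mutant scores. The 5 with the highest scores overlapped 1 to 6 of the 11 other wild-type embryo lists, against a median of 3 over all 44 autosomal mutant peaks. The 5 highest autosomal scores belonged to chrI:4768838-4770730, chrIII:3455297-3457185 and chrIV:4724682-4729026 (each 3100), chrII:14560861-14562378 (2740) and chrII:4047278-4049100 (2458). The chromosome IV peak, at 4345 bp the widest of the mutant list, lay on SCC-2, SMC-4, KLE-2 and CAPG-2 peaks and on no AMA-1 or MIX-1 peak. The chromosome III peak and the first of those on chromosome II lay on SMC-4, KLE-2 and CAPG-2 alone. The second peak on chromosome II lay on CAPG-2 alone, whereas the chromosome I peak lay on SCC-2, AMA-1, SMC-4, MIX-1, KLE-2 and CAPG-2. None of the 5 lay on DPY-26, DPY-28, CAPG-1, DPY-27 or IgG, and all 5 lay on a KLE-2 peak of L3 larvae.

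The 44 autosomal mutant peaks were split at their median score into 22 higher-scoring peaks (391.74 to 3100) and 22 lower-scoring ones (109 to 363). The higher-scoring peaks overlapped a median of 1 of the 11 other wild-type embryo lists, and the lower-scoring ones a median of 5.5. SCC-2 was found at 5 of the 22 higher-scoring peaks (22.7%, 7.82 to 45.4%), against 13 of the 22 lower-scoring ones (59.1%, 36.4 to 79.3%). The same counts were 3 against 11 for AMA-1, 3 against 13 for MIX-1, 8 against 15 for SMC-4 and 11 against 20 for KLE-2. CAPG-2 was found at 13 higher-scoring and 14 lower-scoring peaks, and KLE-2 of L3 larvae at 20 of each. Condensin I subunits lay at lower-scoring peaks, with 0 against 10 for CAPG-1, 0 against 6 for DPY-28 and 0 against 6 for DPY-26. For DPY-27 of condensin I-DC the counts were 1 against 5. All 4 autosomal peaks with IgG were lower-scoring, between 163 and 255. The split comes from the mutant scores themselves, and these shares are a description.

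Both ends of this range can be shown with single sites, chosen after their values were seen. Among the autosomal mutant peaks, 10 overlapped none of the 11 lists, with scores of 235 to 1977. The highest of these was chrIV:3312847-3314277 (1977), followed by chrIV:15530014-15531303 (1742) and chrI:3037525-3038809 (1174), and 8 of the 10 lay on a KLE-2 peak of L3 larvae. Not all of the 10 were separate sites, as chrIII:3854476-3855611 and chrIII:3856658-3857732 lay in 1 wild-type peak. The lowest-scoring, chrII:4049330-4050422 (235), lay in a wild-type peak that overlapped CAPG-2. Another 9 overlapped 8 or more of the lists, with scores of 130 to 363. Of these, chrII:5543115-5544485 (139) and chrIV:11025533-11026782 (211) overlapped 10 of the 11 lists, as did the X peak, with IgG the list they lacked. The wild-type partners of the first 10 all had the ceiling score, as did those of 7 of the other 9, so the wild-type score, cut off at its ceiling, did not tell these sites apart.

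**Figure D3:**
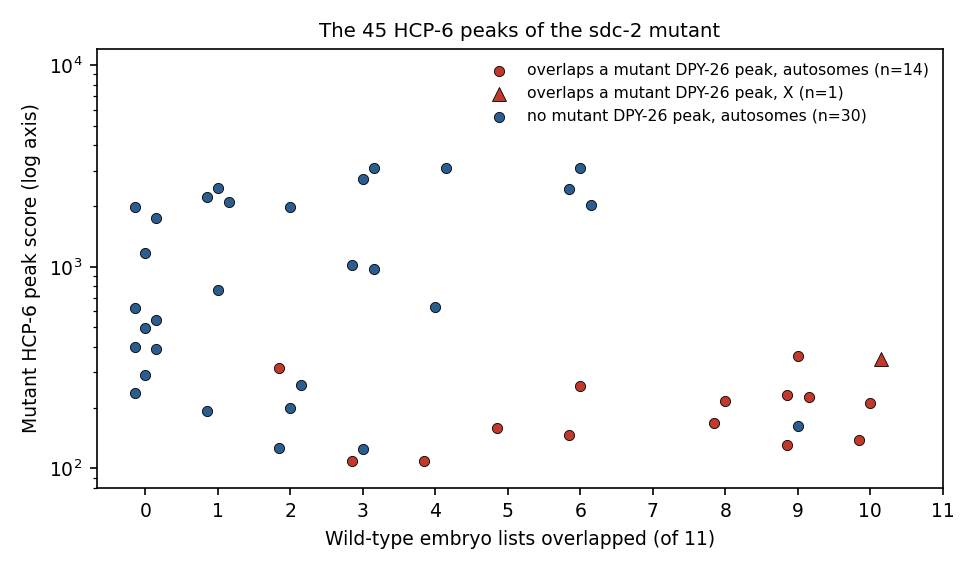
Mutant HCP-6 peak score (log axis) of each of the 45 peaks against the number of the 11 other wild-type embryo lists it overlaps, with peaks that overlap a mutant DPY-26 peak in red and the others in blue, circles for autosomes and a triangle for the X. The 9 autosomal peaks in 8 or more lists score 130 to 363, while the 10 in none of the lists reach 1977.

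Several mutant peaks lay close together in groups, again described after seeing the positions. The spacing of wild-type peaks was not taken, so grouping beyond that of HCP-6 sites in general was not tested. Of 39 pairs of neighbours on 1 chromosome, 9 lay within 50 kb and 7 within 5 kb, against a median gap of 861 kb. Of the pairs within 5 kb, 3 were 2 mutant peaks inside 1 wild-type peak and not separate sites. The chromosome II group held chrII:4043869-4045142 (765), chrII:4047278-4049100 (2458) and chrII:4049330-4050422 (235), the last 2 within 1 wild-type peak, chrII:4047007-4051025. The chromosome IV group held chrIV:4720130-4721640 (2090), chrIV:4724682-4729026 (3100) and chrIV:4749486-4750628 (255), of which the last lay on an IgG peak. On chromosome III the pair chrIII:3455297-3457185 and chrIII:3459683-3460752 scored 3100 and 126. Strong and weak mutant peaks thus stood side by side within these groups. Along the autosomes, 9 of 41 kept sites lay between 33.3% and 66.7% of the length of their chromosome (22%, 10.6 to 37.6%), against 36% (33.5 to 38.7%) of lost sites. By SCC-2 the 9 were 7 of the 18 kept sites with it (38.9%, 17.3 to 64.3%) and 2 of the 23 without it (8.7%, 1.07 to 28%). The intervals overlapped in both comparisons. The split by SCC-2 was not taken for lost sites or for all autosomal sites, so whether it is particular to kept sites is unknown.

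A smaller share of wild-type peaks had an overlapping mutant peak for HCP-6 than for KLE-2 or SCC-2. KLE-2, the kleisin of condensin II, kept 183 of 1474 wild-type peaks (12.4%, 10.8 to 14.2%), with 24 of 236 on the X (10.2%, 6.63 to 14.8%) and 159 of 1238 on the autosomes (12.8%, 11 to 14.8%). SCC-2 kept 278 of 1167 (23.8%, 21.4 to 26.4%), with 60 of 297 on the X (20.2%, 15.8 to 25.2%) and 218 of 870 on the autosomes (25.1%, 22.2 to 28.1%). DPY-26 kept 22 of 2420 (0.909%, 0.571 to 1.37%), with 5 of 2376 on the X (0.21%, 0.0684 to 0.49%) and 17 of 44 on the autosomes (38.6%, 24.4 to 54.5%). The HCP-6 shares of 0.329% on the X and 2.99% on the autosomes thus lay below those of KLE-2 and SCC-2 on both, with intervals apart, and the HCP-6 and DPY-26 intervals overlapped on the X. All of the HCP-6 mutant peaks had a wild-type partner, as did 191 of 201 for KLE-2, 289 of 315 for SCC-2 and 22 of 88 for DPY-26. No replicate values stand behind these differences between antibodies, which also differ in libraries and depth.

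At the ceiling score, X sites were kept less often than autosomal ones for each protein that allowed the comparison. HCP-6 kept 1 of 20 on the X (5%) and 37 of 90 on the autosomes (41.1%). KLE-2 kept 11 of 25 on the X (44%, 24.4 to 65.1%) and 71 of 86 on the autosomes (82.6%, 72.9 to 89.9%), and SCC-2 kept 4 of 21 (19%, 5.45 to 41.9%) and 22 of 22 (100%, 84.6 to 100%). DPY-26 had no autosomal wild-type peak at the ceiling. In each of the 3 proteins the intervals for X and autosomes stood apart. Over all scores, those of HCP-6 stood apart, and those of KLE-2 and SCC-2 overlapped. The lower X dose of the mutant animals goes with this difference and cannot be told apart from it. The same holds for the separate processing of X and autosomal reads that the paper states for the mutant.

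**Figure D4:**
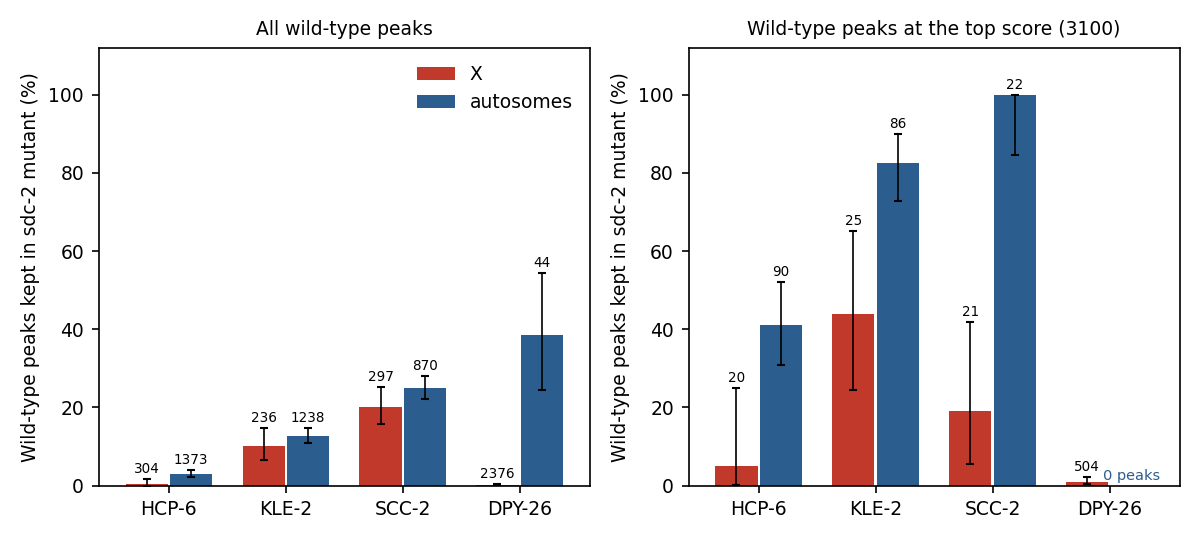
Share of wild-type peaks (%) kept in the sdc-2 mutant for HCP-6, KLE-2, SCC-2 and DPY-26, X in red and autosomes in blue, for all peaks on the left and for peaks at the ceiling score of 3100 on the right, with exact 95% intervals over peaks and the number of wild-type peaks above each bar. HCP-6 has 0.329% on the X and 2.99% on the autosomes for all peaks, and 5% and 41.1% at the ceiling.

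The same HCP-6 sites were also read in the other mutant lists. The mutant DPY-26 and SCC-2 ChIPs share both input libraries with mutant HCP-6, and mutant KLE-2 shares 1 of them, so the values are set side by side only. Of the 41 kept autosomal sites, 13 carried a mutant KLE-2 peak, 17 a mutant SCC-2 peak and 14 a mutant DPY-26 peak. Of the 1332 lost autosomal sites, 122 carried mutant KLE-2 (9.16%), 197 mutant SCC-2 (14.8%) and 62 mutant DPY-26 (4.65%), against 9.83%, 15.6% and 5.54% of all 1373. Of the 303 lost X sites, 16 carried mutant KLE-2 (5.28%), 57 mutant SCC-2 (18.8%) and 6 mutant DPY-26 (1.98%), against 5.59%, 19.1% and 2.30% of all 304.

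Among autosomal sites at the ceiling the shares with these peaks were lower for kept than for lost sites, with intervals that overlapped in all 3 cases. Mutant KLE-2 was found at 10 of 37 kept (27%, 13.8 to 44.1%) and 28 of 53 lost sites (52.8%, 38.6 to 66.7%), mutant SCC-2 at 13 (35.1%, 20.2 to 52.5%) and 33 (62.3%, 47.9 to 75.2%), and mutant DPY-26 at 10 (27%, 13.8 to 44.1%) and 24 (45.3%, 31.6 to 59.6%). The 3 widest lost autosomal sites at the ceiling, named above, carried all 3 of these mutant peaks. Within the mutant list, the 11 autosomal HCP-6 peaks with all 3 had scores of 109 to 363 (median 168), and the 26 with none of them had scores of 126 to 3100 (median 868). Of the 14 mutant HCP-6 peaks with scores of 1000 or more, 12 had none of the 3.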

How the data were processed

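The members were all peaks of the 2 HCP-6 lists, and the lists and comparisons were chosen with earlier results of these data known. The authors aligned reads with Bowtie 0.12.7 to WS220 (best alignment, at most 4 places in the genome), called peaks with MACS against input at p = 1e-10 on pooled replicates, and kept those also present in most single replicates. For the sdc-2 mutant they handled X reads and autosomal reads apart, a step not stated for wild type. The deposited score of each peak is the negative log10 of the MACS p multiplied by 10, with a ceiling of 3100, and is not comparable between lists of unequal depth. Positions are given from 1. Genes and sequences of WS220 were not used here, nor were the RNA tables. Overlap meant at least 1 shared base. Shares have exact Clopper-Pearson 95% intervals over peaks (scipy 1.17.1), which are not replicates, and intervals of medians come from order statistics. No test between strains was possible. Overlap functions were tested on simulated peaks. Named peaks were the mutant X peak, the 5 highest-scoring mutant autosomal peaks, the lowest-scoring kept peak and the 3 highest-scoring, then widest, lost peaks on the X and autosomes; others are said to be chosen after seeing values. Comparisons at the ceiling score, of list combinations and within the mutant list by score were likewise added after seeing the data. The alternatives changed the overlap rule, the score limits and the merging of peaks.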

Additional observations from a re-analysis of the deposited data

How the results depend on the processing

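No paired analysis was possible because each list pools its replicates and holds 1 value per peak; for the same reason no replicate could be left out. Of 90 values of 10 results under 9 alternatives, 81 stayed within 1.5 times the count or inside the interval of the value reported. Of the 9 that moved, 7 came from using only mutant peaks at or above the median mutant score: 0 wild-type peaks were then kept on the X and 22 on the autosomes, 23 mutant peaks were left, all with a partner, and of the kept autosomal peaks 27.3% had SCC-2, 18.2% AMA-1, 18.2% MIX-1 and 0% IgG. Leaving out wild-type peaks on IgG peaks (added after seeing the data) kept 37 autosomal peaks, of which 0% had IgG by construction, and merging peaks within 200 bp put the median score percentile at 96.7, against 96.8. For counts, the limit was set on the number kept and not on its share. Among only the top wild-type peaks the kept share was 41.1% on the autosomes, against 2.99%, and 5% on the X, against 0.329%. Kept autosomal peaks all lay in the top 17.2% by score, so taking wild-type peaks at or above the median score could not remove any. With 41 of 45 mutant peaks wholly inside their partner, stricter overlap rules had little room to change the values. The ceiling of 3100 hides differences in height among the strongest wild-type peaks, and the depth of the libraries is unknown from these files.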
